A study of Mus musculus with 6 samples.

Results

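The S100 genes encode small proteins built from paired EF-hands, the helix-loop-helix fold that holds calcium. From the series on the mouse mammary carcinoma line 4T1, 10 of them were followed: S100a1, S100a4, S100a6, S100a8, S100a9, S100a10, S100a11, S100a13, S100a14 and S100a16. They were chosen by name, and their gene identifiers were all found among the 28418 genes of the deposited tables. 4T1 is a line of mouse mammary tumour cells, labelled as epithelial and described in the series as triple negative. Poly(A) RNA was sequenced in 3 libraries from cells kept with 100 nM PFOS (perfluorooctane sulfonate, a fluorinated surfactant that persists in the environment) and in 3 libraries from cells at 0 nM, both over 35 passages. No further treatment or genotype is labelled for either group, and whether replicate libraries stem from separate cultures is not stated, so p-values reflect the spread among these 6 libraries alone, which may be technical. Levels are FPKM, a count of fragments relative to transcript length and library size.

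Most S100 proteins work as dimers that change shape when calcium binds and then grip a target protein, and some are also released from cells and act on surface receptors. S100A4 binds non-muscle myosin IIA and was isolated from metastatic mouse mammary tumour cells. S100A10 is unusual in that it does not bind calcium and instead joins annexin A2 at the plasma membrane, where the complex helps to activate plasminogen. S100A8 and S100A9 pair with each other, fill the cytosol of neutrophils and are known for drawing myeloid cells to tumours and to sites of metastasis.

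All 10 genes lie on chromosome 3 in GRCm38, 8 of them in a cluster of 185 kb (90511034 to 90695721) and S100a11 and S100a10 in a second span (93520488 to 93564643). Start-site windows from RefSeq (GRCm38.p6, 250 bases before to 50 after the annotated start, written in the direction of the gene) were found for 8 of the 10, and not for S100a10 and S100a14. The windows of S100a8 and S100a9 are shown because their levels moved together from library to library, that of S100a4 because it had the lowest p-value of the 10, and that of S100a11 because it had the highest level. Capitals mark matches, on either strand, to TATAAA (the TATA box), TTGCNNAA (a C/EBP core), TGANTCA (AP-1) and GGGCGG (a GC box).
S100a8 (chr3:90668821-90669120, plus strand): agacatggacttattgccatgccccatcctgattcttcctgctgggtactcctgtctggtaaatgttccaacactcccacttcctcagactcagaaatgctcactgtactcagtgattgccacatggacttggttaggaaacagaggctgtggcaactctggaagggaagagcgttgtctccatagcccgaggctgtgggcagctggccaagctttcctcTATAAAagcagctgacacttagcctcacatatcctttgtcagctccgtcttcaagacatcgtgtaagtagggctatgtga
S100a9 (chr3:90695672-90695971, minus strand): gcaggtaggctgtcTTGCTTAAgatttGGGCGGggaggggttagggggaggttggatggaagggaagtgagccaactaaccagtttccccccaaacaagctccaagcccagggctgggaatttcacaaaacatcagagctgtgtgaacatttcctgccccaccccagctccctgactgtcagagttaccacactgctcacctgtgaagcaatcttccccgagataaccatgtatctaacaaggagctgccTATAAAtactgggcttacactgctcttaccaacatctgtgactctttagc
S100a4 (chr3:90603520-90603819, plus strand): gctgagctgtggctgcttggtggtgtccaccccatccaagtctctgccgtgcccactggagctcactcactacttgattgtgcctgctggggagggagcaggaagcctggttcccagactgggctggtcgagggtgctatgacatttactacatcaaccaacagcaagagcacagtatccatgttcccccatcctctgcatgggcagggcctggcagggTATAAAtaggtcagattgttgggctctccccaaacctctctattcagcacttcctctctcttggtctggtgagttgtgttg
S100a11 (chr3:93520246-93520545, plus strand): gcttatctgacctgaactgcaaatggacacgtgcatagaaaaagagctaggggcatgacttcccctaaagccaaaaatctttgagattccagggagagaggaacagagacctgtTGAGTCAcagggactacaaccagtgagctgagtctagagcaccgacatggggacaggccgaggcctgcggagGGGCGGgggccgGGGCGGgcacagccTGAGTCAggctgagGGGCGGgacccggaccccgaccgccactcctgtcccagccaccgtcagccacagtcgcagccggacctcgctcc
TATAAA begins 30 bases before the annotated start in S100a8, 31 bases before it in S100a4 and on the start base itself in S100a9. Of 32851 RefSeq windows of this length, 13.6% hold TATAAA, 10.8% TTGCNNAA, 7.81% TGANTCA and 35.7% GGGCGG. S100a9 also holds TTGCTTAA, 236 bases before the start, and 1 GC box. The S100a11 window holds 2 AP-1 matches (TGAGTCA, 136 and 38 bases before the start) and 3 GC boxes, with 15 CpG dinucleotides against 2 to 4 in the other 3 windows shown. The windows of the lower genes S100a13 and S100a1 hold 14 and 11. No capital letters elsewhere means only that these letters are not in the windows.

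S100a1 and S100a13 are placed head to head, and their windows overlap in 204 bases, shown on the plus strand with the 104 bases between the 2 start sites in capitals.
S100a1 and S100a13 (chr3:90514281-90514484, plus strand): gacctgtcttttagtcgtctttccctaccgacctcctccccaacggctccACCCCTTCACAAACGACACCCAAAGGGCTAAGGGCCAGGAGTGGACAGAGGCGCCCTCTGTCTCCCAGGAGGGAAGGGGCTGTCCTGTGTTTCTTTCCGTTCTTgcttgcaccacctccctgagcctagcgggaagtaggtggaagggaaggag
Neither window holds any of the 4 motifs.

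One library stands apart and bears on some values below. Markers of T and NK cells summed to 35.0 FPKM in replicate 3 at 100 nM, against 1.12 and 1.5 FPKM in replicates 1 and 2 at 100 nM and 0.84 to 0.95 FPKM at 0 nM (13 of the 15 listed markers have a row; Cd3e was 0.66 FPKM there and listed at 0 in the other 5). That library also lay far from the rest on the first principal component (score 19.4, the others -9.57 to 0.0585, with 34.9% of the variance). In it alone, 6 genes averaging 1 FPKM or more were listed at 0, among them Havcr1 (13.75 to 16.12 FPKM in the others). Markers of monocytes and macrophages, taken as a sum over 17 genes, were present in all 6 libraries. In replicates 1 to 3 the sums were 168, 328 and 346 FPKM at 100 nM, against 214, 195 and 178 FPKM at 0 nM. Lyz2 was the highest of the 17, and 3 of them stayed under 1 FPKM in every library. All 14 listed epithelial markers had a mean of at least 1 FPKM, from Krt14 (1.05) to Krt8 (296). So did 12 of the 17 monocyte and macrophage markers, so this bar alone does not bear out the epithelial label. Of the 14 epithelial markers, 3 (Cdh1, Krt7 and Krt19) rose at 100 nM, where 1.69% of all tested genes did. At an unadjusted p under 0.05, 9 of the 14 were higher and 0 lower (10.6% of all tested genes were higher), and 8 lay wholly higher at 100 nM (13.7% of all tested genes).

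No S100 gene passed the test for a difference between 100 nM and 0 nM PFOS. Of the 9 that averaged 1 FPKM or more, 0 rose and 0 fell at an adjusted p under 0.05 (limma-trend on log2(FPKM + 1), Benjamini-Hochberg over all 11741 genes tested), where 4.15% of all tested genes passed, 1.69% higher and 2.46% lower. One gene, S100a4, passed an unadjusted p of 0.05, as did 20.7% of all tested genes. The median difference of the 9 was -0.03 on the log2(FPKM + 1) scale against 0.01 for all tested genes, and the median absolute difference was 0.04 against 0.06. The groups of libraries overlapped for all 9, while they did not for 26.9% of all tested genes. In bulk RNA of this kind, fewer cells of a type and less RNA per cell cannot be told apart.

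**Figure D1:**
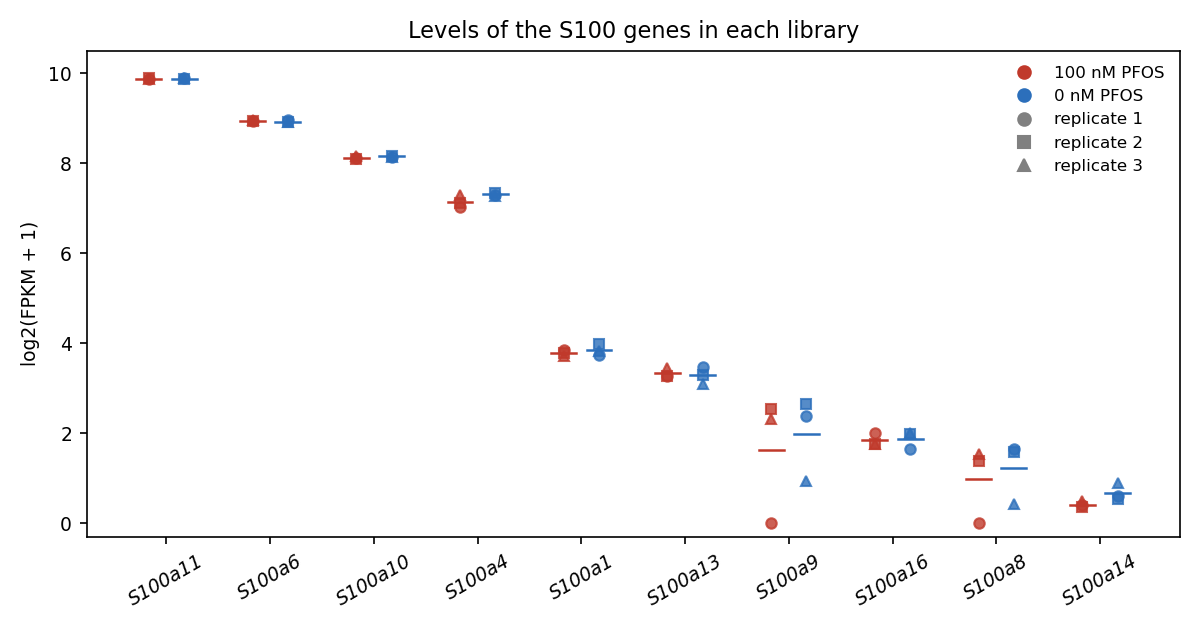
Level of each S100 gene, as log2(FPKM + 1), in the 3 libraries at 100 nM PFOS (red, left) and the 3 at 0 nM (blue, right); symbols give the replicate and bars the group mean. The genes run from S100a11 near 938 FPKM to S100a14 under 1 FPKM, and the widest spread within a group is that of S100a8 and S100a9.

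The genes differ widely in level. Set by mean FPKM over the 6 libraries, the order was S100a11 (940), S100a6 (488), S100a10 (281), S100a4 (149), S100a1 (13.1), S100a13 (8.95), S100a9 (3.19), S100a16 (2.65), S100a8 (1.33) and S100a14 (0.47). Down to S100a9, each gene's lowest library lay above the highest library of the next gene. Among S100a9, S100a16, S100a8 and S100a14, the library ranges of adjacent genes overlapped, whereas S100a16 (2.12 to 3.03 FPKM) lay above S100a14 (0.28 to 0.87 FPKM) in every library. The largest step between neighbours of the upper part was from S100a4 to S100a1, an 11.4-fold ratio of means. S100a11 ranked 32 among all 28418 genes by mean FPKM, S100a6 ranked 74, S100a10 ranked 138 and S100a4 ranked 264. The 10 genes together made up 0.605% to 0.614% of the summed FPKM of a library at 100 nM and 0.614% to 0.623% at 0 nM.

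S100a11, S100a6 and S100a10 were abundant and differed by under 2% between the group means. S100a11 encodes a calcium sensor that binds annexin A1 and takes part in repair of the plasma membrane. It stood at 934, 946 and 934 FPKM in replicates 1 to 3 at 100 nM, against 947, 933 and 948 FPKM at 0 nM. The groups overlapped fully. Its difference was -0.01 on the log2(FPKM + 1) scale (95% interval -0.04 to 0.03; limma adjusted p = 0.845), or -3.01% to 2.11% of FPKM + 1. Of its 31-base words, 48.9% also occur in transcripts of other genes, most of them in the processed pseudogene Gm12854 on chromosome 4, whose own level was 18.0 to 20.7 FPKM at 100 nM and 17.5 to 19.75 FPKM at 0 nM.

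S100a6 encodes calcyclin, which binds the ubiquitin ligase adaptor CacyBP and several annexins. It was 489, 487 and 495 FPKM at 100 nM, against 494, 481 and 482 FPKM at 0 nM. Replicate 3 at 100 nM alone lay above every library at 0 nM. The difference was 0.01 on the log2(FPKM + 1) scale, with a 95% interval of -0.03 to 0.06, or -1.94% to 3.95% of FPKM + 1 (limma adjusted p = 0.713).

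S100a10 was 276, 274 and 285 FPKM at 100 nM, against 282, 286 and 282 FPKM at 0 nM. Replicates 1 and 2 at 100 nM lay below all libraries at 0 nM, and replicate 3 among them. The difference was -0.03 on the log2(FPKM + 1) scale, with a 95% interval of -5.14% to 1.79% of FPKM + 1 (limma adjusted p = 0.556). The p-values of these 3 genes do not show that their levels were equal. Their intervals in this fit were narrow, but they rest on the spread among these 6 libraries, which may be technical. They thus do not bound a difference between separate cultures.

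S100a4 (ENSMUSG00000001020, chromosome 3, 90603771 to 90606045) had the lowest p-value of the 9 genes and did not pass. It was 129, 137 and 155 FPKM at 100 nM, against 156, 162 and 154 FPKM at 0 nM. Replicates 1 and 2 at 100 nM lay below every library at 0 nM, whereas replicate 3, the library that stands apart, lay inside the 0 nM range. The means were 140.4 ± 13.2 FPKM at 100 nM and 157 ± 3.95 FPKM at 0 nM (SD, n = 3 each). On the log2(FPKM + 1) scale the difference was -0.17 ± 0.06 (SE), with a 95% interval of -0.32 to -0.01, an unadjusted p of 0.0381 and an adjusted p of 0.211 in the limma fit. Without replicate 3 at 100 nM the difference was -0.24 and the limma adjusted p 0.0339, and without replicate 3 of both groups they were -0.25 and 0.0768. Without replicate 1 at 100 nM, the lowest library, the difference was -0.11 and the limma adjusted p 0.367. Leaving out any 1 of the other 4 libraries gave differences of -0.18 to -0.15 and limma adjusted p-values of 0.307 to 0.403, so the sign held in all 6 and the call was made in 1. S100a4 is also transcribed in T cells and macrophages. Neither the part of the T cell transcripts in the level of replicate 3 at 100 nM nor any other source of it was tested.

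The count of S100a4 has a second limit. In GENCODE, Gm42674, a protein-coding gene on the same strand, overlaps S100a4 over 2115 bases and holds 49.2% of its 31-base words. Gm42674 has no row among the deposited values, so how reads of the pair were divided is not known. None of the other genes shares over 1% of its words with another gene apart from S100a11.

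S100a1 and S100a13, neighbours that run away from each other from the overlapping windows shown above, were low in both groups. S100a1, best known for calcium handling in heart and skeletal muscle, was 13.5, 12.8 and 12.1 FPKM at 100 nM, against 12.3, 14.7 and 13.2 FPKM at 0 nM. S100a13, which takes part in the release of FGF1 and interleukin 1 alpha without a signal peptide, was 8.66, 8.58 and 9.98 FPKM at 100 nM, against 10.2, 8.78 and 7.54 FPKM at 0 nM. The groups overlapped for both genes. S100a1 was lowest in replicate 3 at 100 nM and highest in replicate 2 at 0 nM, while S100a13 was lowest in replicate 3 and highest in replicate 1, both at 0 nM. The differences on the log2(FPKM + 1) scale were -0.07 for S100a1 (95% interval -0.23 to 0.09; limma adjusted p = 0.635) and 0.04 for S100a13 (95% interval -0.21 to 0.29; limma adjusted p = 0.86). The sign for S100a13 rested on replicate 3 of either group: without it the difference was -0.02 (100 nM) or -0.05 (0 nM), and without both it was -0.12. Leaving out other single libraries gave S100a13 differences of 0.04 to 0.14, and leaving out any single library gave S100a1 differences of -0.12 to -0.0027.

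S100a16 and S100a14, both known from epithelia, were near the lower limit of what was tested. S100a16 was 3.03, 2.41 and 2.4 FPKM at 100 nM, against 2.12, 2.94 and 2.98 FPKM at 0 nM (limma adjusted p = 0.938). The ranges of the groups overlapped over most of their length. S100a14 was 0.32, 0.28 and 0.4 FPKM at 100 nM, against 0.51, 0.44 and 0.87 FPKM at 0 nM. Each value at 100 nM was below each value at 0 nM, which makes S100a14 the single gene of the 10 whose groups did not overlap, but its mean of 0.47 FPKM kept it out of the test; among tested genes 13.3% lay wholly lower at 100 nM. When no filter was applied its limma adjusted p was 0.455.

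**Figure D2:**
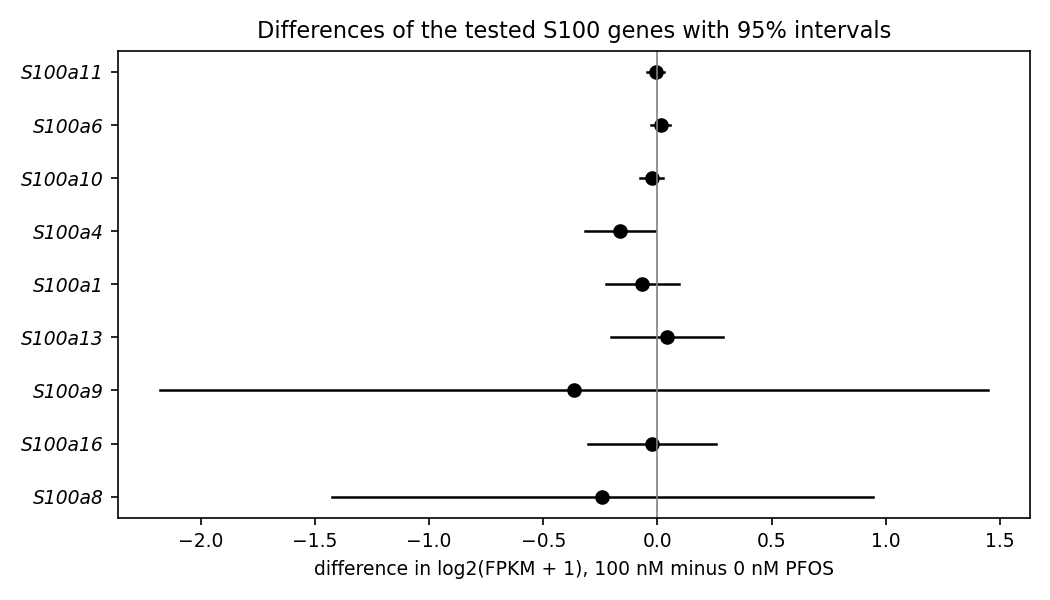
Difference of each tested S100 gene in log2(FPKM + 1), 100 nM minus 0 nM PFOS (points), with its 95% interval from limma (lines). The intervals of S100a11, S100a6 and S100a10 lie within 0.08 of 0, that of S100a4 ends just below 0, and those of S100a8 and S100a9 extend beyond 0.9 on either side.

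S100a8 and S100a9 varied more between libraries of one group than between the groups. S100a8 was listed at 0 in replicate 1 at 100 nM, with 1.62 and 1.91 FPKM in replicates 2 and 3, against 2.14, 1.98 and 0.35 FPKM in replicates 1 to 3 at 0 nM. S100a9 followed the same course, listed at 0 in replicate 1 and at 4.81 and 4.00 FPKM in the others at 100 nM, against 4.19, 5.24 and 0.92 FPKM at 0 nM. Both genes were thus near or at 0 in 1 library of each group, and in the other 4 libraries S100a8 lay between 1.62 and 2.14 FPKM and S100a9 between 4.00 and 5.24 FPKM. Where both were above 0, S100a9 was 1.96 to 2.97 times S100a8, the low replicate 3 at 0 nM included (2.63). The differences were -0.24 for S100a8 (95% interval -1.43 to 0.94; limma adjusted p = 0.828) and -0.37 for S100a9 (95% interval -2.18 to 1.45; limma adjusted p = 0.832) on the log2(FPKM + 1) scale. Intervals of that width include large changes either way. Without replicate 1 at 100 nM the differences had the other sign, at 0.25 for S100a8 and 0.44 for S100a9. Without replicate 3 at 0 nM they were -0.64 and -0.89, and without replicate 3 of both groups -0.92 and -1.24, in the same order. The pseudocount moved them too, to -0.87 and -1.18 on the log2(FPKM + 0.1) scale. Neither gene passed in any of these fits (limma adjusted p 0.387 to 0.778).

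Another transcript, Ngp on chromosome 9, had the same profile. It encodes neutrophilic granule protein, a product of immature neutrophils, and is on the list of neutrophil markers. Ngp was listed at 0 in replicate 1 and at 2.2 and 1.99 FPKM in replicates 2 and 3 at 100 nM, against 1.91, 2.64 and 0.29 FPKM at 0 nM. Among genes that averaged 1 FPKM or more, the 3 that were listed at 0 in replicate 1 at 100 nM and above 0 in all other libraries were S100a8, S100a9 and Ngp. This search was made after the values were seen.

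**Figure D3:**
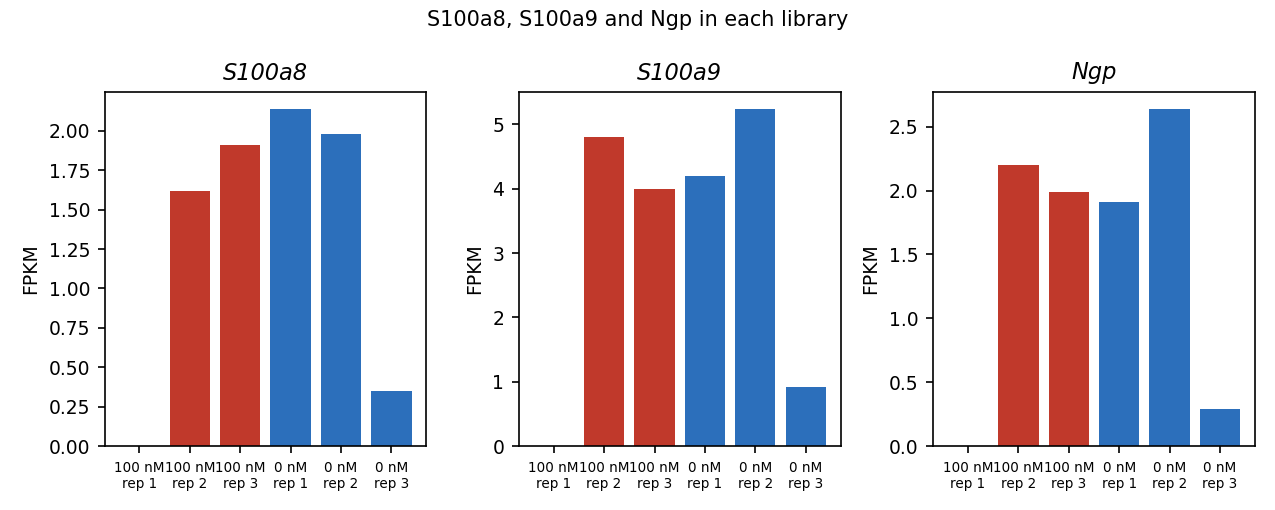
FPKM of S100a8, S100a9 and Ngp in each library, with 100 nM PFOS in red (left) and 0 nM in blue (right). All 3 genes are listed at 0 in replicate 1 at 100 nM and are low in replicate 3 at 0 nM (0.35, 0.92 and 0.29 FPKM).

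The likeness of profiles was also measured over all genes. It was taken as the Euclidean distance between z-scored log2(FPKM + 1) profiles over the 6 libraries, among 10220 tested protein-coding genes outside the family. Nearest to S100a9 were Edf1 (distance 0.337) and Ngp (0.347), and nearest to S100a8 were Psmc2 (0.273) and Tmem183a (0.42), with Ngp next at 0.512. The median distance to all genes was 3.48 for S100a8 and 3.47 for S100a9. Z-scores remove the size of a change. Psmc2, a proteasome ATPase gene, ran from 23.5 to 24.2 FPKM over the libraries, and Edf1 from 40.6 to 47.6 FPKM, whereas Ngp shared the 0.

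Other neutrophil markers were scarcely detected. Of the 13 listed, 12 have a row, 9 stayed under 1 FPKM in every library, and their sums were 1.54, 5.26 and 3.97 FPKM at 100 nM, against 4.33, 4.66 and 1.66 FPKM at 0 nM, with Ngp included. Ly6g was 0.21 FPKM in replicate 1 at 100 nM and 0.12 FPKM in replicate 3 at 0 nM and listed at 0 in the other 4. Ltf, which encodes lactoferrin, was 0.44, 0.70 and 0.82 FPKM at 100 nM, against 1.18, 0.98 and 0.93 FPKM at 0 nM, without the fall in replicate 3 at 0 nM. The marker Mpo, at 0, 0.05 and 0.06 FPKM at 100 nM against 0.1, 0.03 and 0.08 FPKM at 0 nM, was not lowest there either. Some other markers were low in replicate 3 at 0 nM, most of them at levels near 0 throughout. Camp, which encodes cathelicidin, was 0.06, 0.3 and 0.17 FPKM at 100 nM, against 0.15, 0.15 and 0 FPKM in replicates 1 to 3 at 0 nM. Elane, the neutrophil elastase gene, was 0, 0.24 and 0 FPKM at 100 nM, against 0.24, 0.22 and 0 FPKM at 0 nM. Mmp8, neutrophil collagenase, was 0.63, 1.25 and 0.68 FPKM at 100 nM, against 0.6, 0.43 and 0.22 FPKM at 0 nM, lowest of all in replicate 3 at 0 nM. The marker Prtn3 was 0.1, 0.13 and 0.11 FPKM at 100 nM, against 0.06, 0 and 0 FPKM at 0 nM. Mmp8 and Prtn3 lay wholly higher at 100 nM and Ltf wholly lower, and none of these was tested. Among tested genes 13.7% lay wholly higher and 13.3% wholly lower. Camp and Elane were also low or at 0 in replicate 1 at 100 nM, where Ltf (0.44 FPKM) and Mpo (0 FPKM) had their lowest values. Mmp8 and Prtn3 were not lowest there, and Ly6g had its highest value there (0.21 FPKM). These markers were picked with their values in view. The part of neutrophil RNA in the levels of S100a8 and S100a9 was not tested. Whether an exact 0 here is a failed estimate or an absent transcript was not tested. Of 4830 genes that averaged 10 FPKM or more, 1 to 2 were listed at 0 in each library. S100a8, S100a9 and Ngp averaged less. Among genes averaging 1 FPKM or more, those at 0 in a single library numbered 3, 0 and 6 in replicates 1 to 3 at 100 nM. At 0 nM they numbered 1, 0 and 1.

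Partners and receptors of the S100 proteins were read from lists. Of 17 tested binding partners, 1 rose and 0 fell, against 1.69% and 2.46% of all tested genes, with a median difference of 0.01. At an unadjusted p under 0.05, 4 were higher and 1 lower (20.7% of all tested genes passed in either direction), and 5 lay wholly higher and 1 wholly lower (13.7% and 13.3% of all tested genes). The one that rose was Anxa2, the annexin that S100A10 joins (ENSMUSG00000032231, chromosome 9). Anxa2 was 279, 276 and 275 FPKM at 100 nM, against 257, 252 and 253.5 FPKM at 0 nM. All libraries at 100 nM lay above all at 0 nM. On the log2(FPKM + 1) scale it differed by 0.12 ± 0.02 (SE; limma adjusted p = 0.0161), and its adjusted p lay between 0.0118 and 0.1 over 16 alternatives, of which 9 ended the call, among them leaving out any of the 3 libraries at 0 nM or replicate 1 or 2 at 100 nM (0.0611 to 0.0735).

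S100a10 was set against Anxa2, since both products form one complex. The ratio of S100a10 to Anxa2, both per length, was 0.992, 0.992 and 1.04 at 100 nM, against 1.1, 1.13 and 1.11 at 0 nM. The groups did not overlap. The exact permutation test of the log2 ratio, two-sided, gave p = 0.1, the smallest that 3 against 3 allows, and 0.2 adjusted over the 4 pairs compared. The ratio of S100a11 to its partner Anxa1 behaved likewise, at 8.02, 7.87 and 7.81 at 100 nM, against 8.31, 8.24 and 8.36 at 0 nM, with the same exact p of 0.1. Anxa1 itself averaged 119 ± 1.9 FPKM at 100 nM and 113.5 ± 0.39 FPKM at 0 nM (SD, n = 3 each) and did not pass (limma adjusted p = 0.121). It lay wholly higher at 100 nM, as did 13.7% of all tested genes. On the log2(FPKM + 1) scale Anxa2 and Anxa1 differed by 0.12 and 0.06, against -0.03 for S100a10 and -0.01 for S100a11. Both ratios thus mostly restate the values of the annexins.

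The other 2 ratios overlapped. S100a4 to Myh9, the heavy chain of non-muscle myosin IIA, was 2.24, 2.32 and 2.69 at 100 nM, against 2.72, 2.86 and 2.63 at 0 nM (exact permutation p = 0.2, n = 3 each). S100a6 to Cacybp was 8.12, 8.06 and 8.46 at 100 nM, against 8.6, 8.05 and 8.04 at 0 nM (exact permutation p = 1, n = 3 each). Myh9 was 58.1 ± 0.711 FPKM at 100 nM and 57.5 ± 1.09 FPKM at 0 nM, and Cacybp 59.7 ± 1.11 FPKM at 100 nM and 59.1 ± 1.42 FPKM at 0 nM (SD, n = 3 each).

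**Figure D4:**
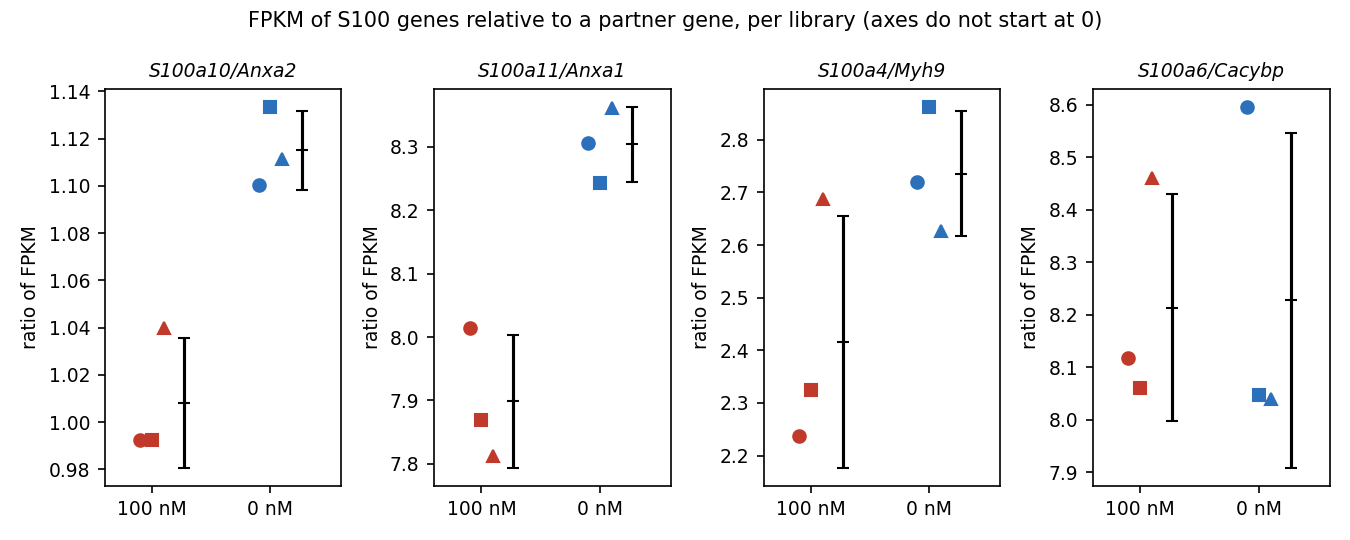
Ratio of FPKM of an S100 gene to that of a partner gene in each library, with 100 nM PFOS in red (left) and 0 nM in blue (right); black marks are the mean and SD of a group, and circles, squares and triangles are replicates 1 to 3. The groups do not overlap for S100a10 to Anxa2 and S100a11 to Anxa1, and overlap for S100a4 to Myh9 and S100a6 to Cacybp.

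Receptors through which released S100 proteins act did not pass the test. Of 14 listed, 7 were tested and 0 rose or fell in the limma fit (3 at an unadjusted p under 0.05, 2 higher and 1 lower, where 20.7% of all tested genes passed), with a median difference of 0.04. The groups of those 3, named after their values were seen, did not overlap. Among all tested genes 26.9% did not overlap, 13.7% higher and 13.3% lower. The separation and the p-value rest on the same values, so the first adds no support to the second. Bsg, which encodes basigin, a receptor for S100A9, was 324, 335 and 331 FPKM at 100 nM, against 316, 312 and 305 FPKM at 0 nM (limma adjusted p = 0.0775). Alcam, a cell adhesion molecule, was 8.53, 7.44 and 8.58 FPKM at 100 nM, against 7.29, 7.31 and 7.3 FPKM at 0 nM (limma adjusted p = 0.2). Nptn, which encodes neuroplastin, a receptor for S100A8, was 18.3, 18.4 and 17.7 FPKM at 100 nM, against 19.99, 19.9 and 19.6 FPKM at 0 nM (limma adjusted p = 0.0517). Bsg and Alcam were thus wholly higher at 100 nM and Nptn wholly lower. Tlr4, a receptor for S100A8 and S100A9, was 3.58, 3.24 and 3.57 FPKM at 100 nM, against 3.32, 3.76 and 3.49 FPKM at 0 nM. Ager, which encodes the receptor for advanced glycation end products, was 0.1 to 0.21 FPKM at 100 nM and 0.11 to 0.22 FPKM at 0 nM and was not tested. Of 18 tested factors and inflammatory genes linked to S100a8 and S100a9 transcription, 0 rose or fell in the limma fit (2 lower and 0 higher at an unadjusted p under 0.05, where 10.2% of all tested genes were lower). The median difference was -0.00295.

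**Figure D5:**
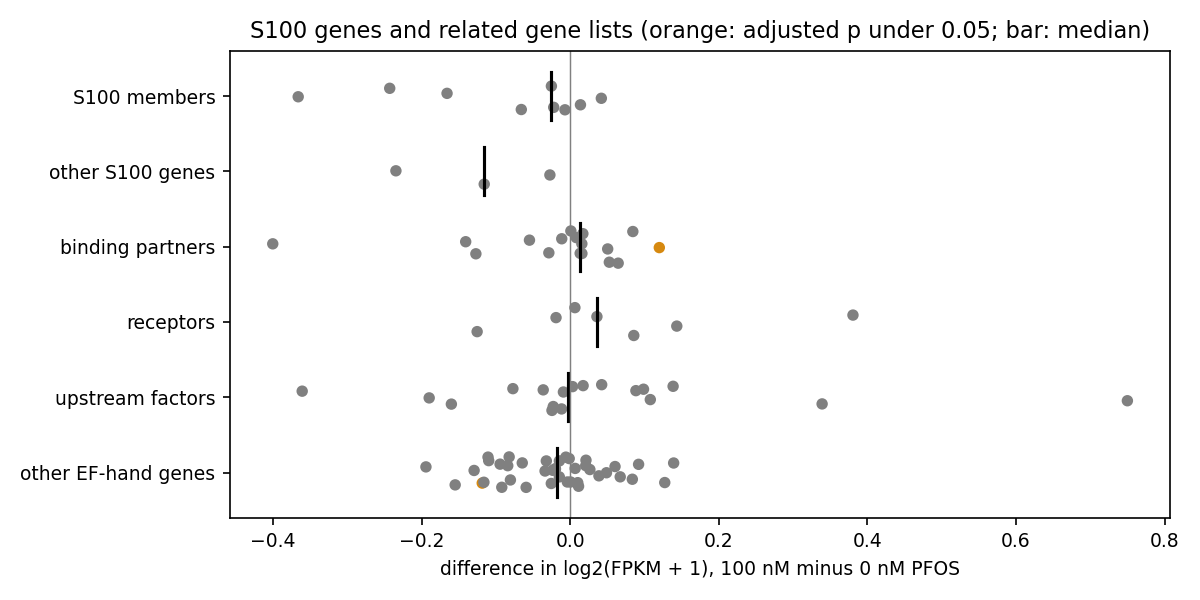
Differences in log2(FPKM + 1), 100 nM minus 0 nM PFOS, of the S100 genes and of 5 related lists; each point is a tested gene, bars are medians, and orange marks an adjusted p under 0.05. The marked genes are Anxa2 among the binding partners (0.12) and Chp1 among the other EF-hand genes (-0.12).

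EF-hand genes outside the family, such as the calmodulins and calpains, were also counted. Of 40 tested, 0 rose and 1 fell, against 1.69% and 2.46% of all tested genes, with a median difference of -0.02. At an unadjusted p under 0.05, 10 were lower and 2 higher, against 10.2% and 10.6% of all tested genes, and 7 lay wholly lower and 4 wholly higher, against 13.3% and 13.7%. Chp1, a calcineurin B-like protein that binds sodium-proton exchangers, was 16.8, 16.6 and 16.8 FPKM at 100 nM, against 18.2, 18.4 and 18.1 FPKM at 0 nM (difference -0.12 ± 0.02 (SE); limma adjusted p = 0.0414). Its call ended in 10 of 16 alternatives, among them leaving out any 1 of the 6 libraries (adjusted p 0.0846 to 0.138).

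Of 9 further genes listed with the family, 6 have a row among the deposited values, and these were also low. S100a7a was 3.44, 5.07 and 3.37 FPKM at 100 nM, against 5.43, 3.93 and 5.05 FPKM at 0 nM (limma adjusted p = 0.45), and S100a3, known from the hair cuticle, was 1.92, 1.78 and 1.97 FPKM at 100 nM, against 1.94, 2.5 and 1.98 FPKM at 0 nM (limma adjusted p = 0.482). S100pbp, which encodes an S100-binding nuclear protein and no EF-hand, was 5.29 to 5.47 FPKM at 100 nM and 5.35 to 5.71 FPKM at 0 nM. S100b, the glial member, did not exceed 0.01 FPKM at 100 nM and 0.05 FPKM at 0 nM. S100a2 did not exceed 0.02 FPKM in any library, and S100g was 0.48 FPKM in replicate 2 at 100 nM and listed at 0 in the other 5.

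Neighbouring genes were read as well. Within 500 kb of the 8-member cluster, 16 genes of other families were tested, of which 0 rose or fell in the limma fit (3 at an unadjusted p under 0.05, where 20.7% of all tested genes passed), with differences of -0.27 to 0.24 and a median of 0.03. S100a11 and S100a10 stand alone in this respect. Of 13 other genes with a row within 500 kb of them, none had a mean of 1 FPKM, and the highest, Rplp0-ps1, had a mean of 0.77 FPKM.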

How the data were processed

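Poly(A) RNA of 6 libraries was sequenced in strand-marked (dUTP) read pairs of 150 bases, per the labels' protocols. The deposited values are FPKM per gene, 1 table per library, per the file headers. The submitters' processing notes name the tools fastp, HISAT2 and StringTie and the builds GRCh38 and mm10. Tool versions, the role of GRCh38 and the strand setting of the quantification are not given in the sources. Of 28418 identifiers, 28350 are in GENCODE M21 (GRCm38) and 25640 have identical coordinates there, so coordinates belong to GRCm38. Without strand, reads of genes that overlap on opposite strands cannot be told apart. Gm42674, which overlaps S100a4, lies on the same strand, so strand would not separate that pair.

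Groups followed the labelled PFOS dose. limma-trend (limma 3.58.1, R 4.3.3) was fitted to log2(FPKM + 1), 100 nM minus 0 nM, two-sided, over the 11741 genes averaging 1 FPKM or more, with Benjamini-Hochberg adjustment over all of them and a threshold of 0.05. Such differences understate changes of low genes. The script was tested on simulated data. FPKM give no depth. In short single-transcript genes, 24.7% to 27.5% of low values lay within 0.1 of a whole multiple at the best step, so reads were not recovered and precision is known only from replicates. No libraries held identical tables (69 to 125 values of at least 1 FPKM were equal between any pair). Shared 31-base words were counted on GENCODE transcripts. Members and lists were chosen with earlier results of these data known. The text names all 10 members, the other S100 genes, up to 4 list genes past the threshold, direct partners, and the 2 nearest profiles to S100a8 and S100a9; other genes were named after their values were seen. Alternatives covered scaling, filter, pseudocount, moderation, a block for the replicate number and the omission of libraries. Permutation tests used scipy 1.17.1 in Python 3.11.15, and figures matplotlib 3.10.9.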

Additional observations from a re-analysis of the deposited data

How the results depend on the processing

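Over 16 alternatives, 0 S100 genes rose in any, and 0 fell in 15; the exception was S100a4 without replicate 3 at 100 nM, so the count lower ran from 0 to 1 when single libraries were left out. All genes tested gave 198 higher and 289 lower; these became 69 and 135 with no filter, 118 and 176 with no trend, 11 and 47 with the replicate number as a block, and 34 and 57 without replicate 3 of both groups. Leaving out single libraries gave 38 to 114 higher and 84 to 176 lower. Whether the replicate numbers pair the samples is not known. Deviations of same-numbered libraries correlated at -0.033, -0.053 and 0.007, so no effect shared by a number was seen. These values do not settle how the cultures were matched. The block changed no S100 call. Among binding partners, the 1 higher gene (Anxa2) became 0 with no filter, with no trend, under the block and without replicate 3 of both groups, and 0 to 1 when single libraries were left out, while 1 fell (Myh10) at a mean of at least 5 FPKM. At that filter 1 receptor fell (Nptn). Of the S100a8 and S100a9 upstream list 1 fell (Jun) under median-ratio scaling, quantile normalization, a mean of at least 5 FPKM and robust moderation, and 0 to 1 fell when single libraries were left out (Jun or Fosl1). Of other EF-hand genes the 1 lower gene became 0 with no filter, no trend, the block, without replicate 3 of both groups and without any 1 library (0 in each). The cause was not tested. S100a8 and S100a14 sit near or under 1 FPKM, where the depth behind a value is not known.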
